A study of Homo sapiens with 3 samples.

Results

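The transcripts described here encode the subunits of the IL-12 cytokine family, IL23A, IL12A, IL12B, EBI3 and IL27, in PANC-1, a long-established cell line from a human pancreatic carcinoma. The 5 genes were listed by name, and IL23A was included because its signal under okadaic acid had already been seen to stand out on these arrays. Probes were assigned through their RefSeq accessions, and each of the 5 genes had a single probe, out of 19699 named genes and 34041 probes in all. There were 3 arrays, with 1 array each for untreated control cells, cells given 20 µM cantharidin and cells given 20 µM okadaic acid, with a treatment time of 24 h. The labels give this dose in the characteristics of both treated samples, while the treatment protocol writes it beside cantharidin only. Cantharidin and okadaic acid both inhibit protein phosphatase 2A (PP2A), which restrains the ERK, JNK, PKC and NF-κB pathways. The comparison of the treated arrays with the control array asked which transcripts changed with each agent. Each group had 1 array, so the values describe these 3 arrays, without replicates and without a test between groups.

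Cytokines of the IL-12 family are secreted as pairs of unlike chains. One chain of each pair is a helical cytokine subunit, and the other resembles a soluble cytokine receptor. IL23A encodes p19, which pairs with the IL12B product p40 to form IL-23, and IL12A encodes p35, which pairs with the same p40 to form IL-12. IL27 encodes p28, which pairs with the EBI3 product to form IL-27, while p35 and EBI3 together form IL-35. These cytokines are best known as products of dendritic cells and macrophages, from which they steer T cells, with IL-12 acting on interferon-γ-producing cells and IL-23 on cells that make IL-17. Transcription of the family is induced by inflammatory signals, with NF-κB factors among the known regulators.

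The RefSeq sequences just upstream of IL23A, IL12A and EBI3 are shown because these genes were measured on all 3 arrays and moved differently. Each line holds the 250 bases before the gene start, 5′ to 3′ on the gene's strand, in build GRCh38.p14. The windows lie at chr12:56338634-56338883 for IL23A, chr3:159988585-159988834 for IL12A and chr19:4229273-4229522 for EBI3, all on the plus strand. Capitals mark matches to the κB consensus, to the AP-1 motif TGANTCA or to TATAAA, searched on both strands.
IL23A: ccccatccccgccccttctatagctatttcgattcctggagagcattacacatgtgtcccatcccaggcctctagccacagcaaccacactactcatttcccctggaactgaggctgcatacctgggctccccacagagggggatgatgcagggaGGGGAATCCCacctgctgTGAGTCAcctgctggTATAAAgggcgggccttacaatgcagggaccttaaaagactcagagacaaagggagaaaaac
IL12A: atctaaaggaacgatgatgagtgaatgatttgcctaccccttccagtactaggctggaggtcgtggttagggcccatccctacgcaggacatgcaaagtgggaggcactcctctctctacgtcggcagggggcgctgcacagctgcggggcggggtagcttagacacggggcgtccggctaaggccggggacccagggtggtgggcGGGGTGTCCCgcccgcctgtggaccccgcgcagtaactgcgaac
EBI3: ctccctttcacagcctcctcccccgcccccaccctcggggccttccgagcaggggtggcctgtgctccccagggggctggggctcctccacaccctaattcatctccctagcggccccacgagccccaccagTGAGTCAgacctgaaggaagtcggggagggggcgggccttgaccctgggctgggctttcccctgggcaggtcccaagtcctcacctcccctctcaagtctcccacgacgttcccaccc
The IL23A window held a κB match from position -95 to -86, an AP-1 match from -77 to -71 and a TATAAA match from -62 to -57, counted back from the gene start, and none of these overlapped. The IL12A window held a κB match from -44 to -35, and the EBI3 window an AP-1 match from -118 to -112. No match was found in the IL12B window at chr5:159330488-159330737 on the minus strand, and none of these 4 windows matched the C/EBP motif TTGCNNAA. Only exact matches to fixed patterns were counted, so a window without a match can still hold an element that departs from the pattern. Among 35116 such windows in the RefSeq table, 5.21% held a κB match, 6.57% an AP-1 match, 10.7% TATAAA and 9.05% the C/EBP motif. A κB and an AP-1 match occurred together in 0.322% of windows (113), and both with TATAAA in 0.0228% (8). Only combinations present at IL23A were counted, and its own window is among them, so these low shares carry no test. These matches describe letters in the sequence, and binding of any factor was not measured.

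**Figure D1:**
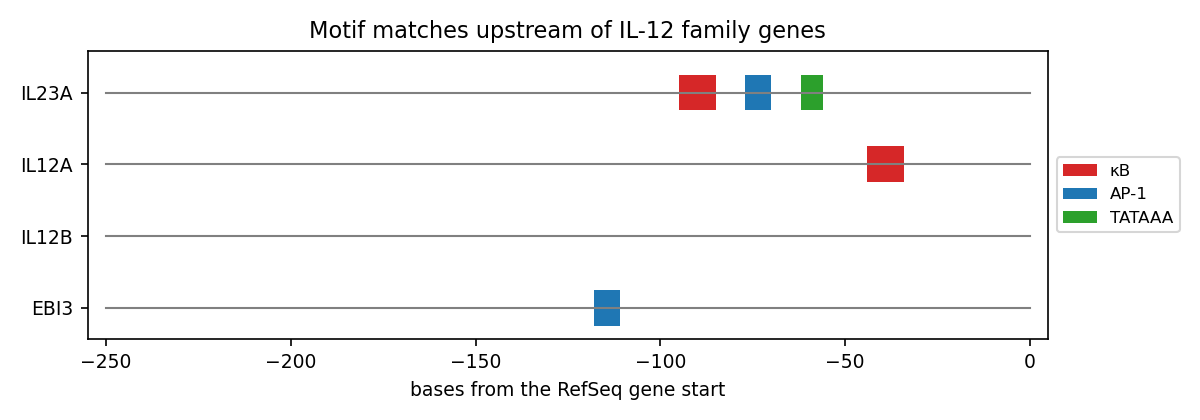
Motif matches in the 250 bases before the gene start of IL23A, IL12A, IL12B and EBI3. The horizontal axis gives the distance from the RefSeq gene start in bases, and coloured boxes mark κB, AP-1 and TATAAA matches on either strand. IL23A carries all 3 kinds between -95 and -57, IL12A and EBI3 carry 1 match each and IL12B none.

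IL23A showed the largest change of the family under both agents. Its processed intensity, which is the spot brightness after background subtraction, was 106.5 in control cells, 3411 under cantharidin and 110525 under okadaic acid. The 3 values were far apart, and each was well above background by the flag of the scanner software. After each array was divided by its 75th percentile, the IL23A signal with cantharidin was 35.3-fold that of control (log2 difference 5.14), and with okadaic acid 869.7-fold (log2 difference 9.76). The spot noise SD of these differences, taken from probes of like brightness printed many times on each array, was 0.20 and 0.19 on the log2 scale, and it covers neither variation between cultures nor between hybridisations. Between the agents, the IL23A signal was 24.7-fold higher with okadaic acid (log2 difference 4.62, spot noise SD 0.11). In bulk RNA, a change in the share of cells that express a transcript and a change in the amount per cell cannot be told apart.

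Since IL23A rested on 1 spot per array, the spots themselves were examined. None carried an outlier or saturation flag, and the brightest value lay below the saturation limit of 778190 intensity units. The local background around the IL23A spot was 33.0, 23.5 and 32.0 (control, cantharidin, okadaic acid), beside medians of 32, 28 and 30 over all spots. The error that the scanner software assigned to the IL23A signal was 12.1% of it on the control array and 10.0% on each treated array. Among the spots printed nearest to it, 17 could be compared between okadaic acid and control, and their median log2 difference was 0.05, with a highest value of 4.32. IL23A was included for its high signal under okadaic acid, so its place above these neighbours, at 9.76, carries no test of the spot. For cantharidin against control, the same number of neighbours had a median of -0.41 and a highest value of 2.76.

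**Figure D2:**
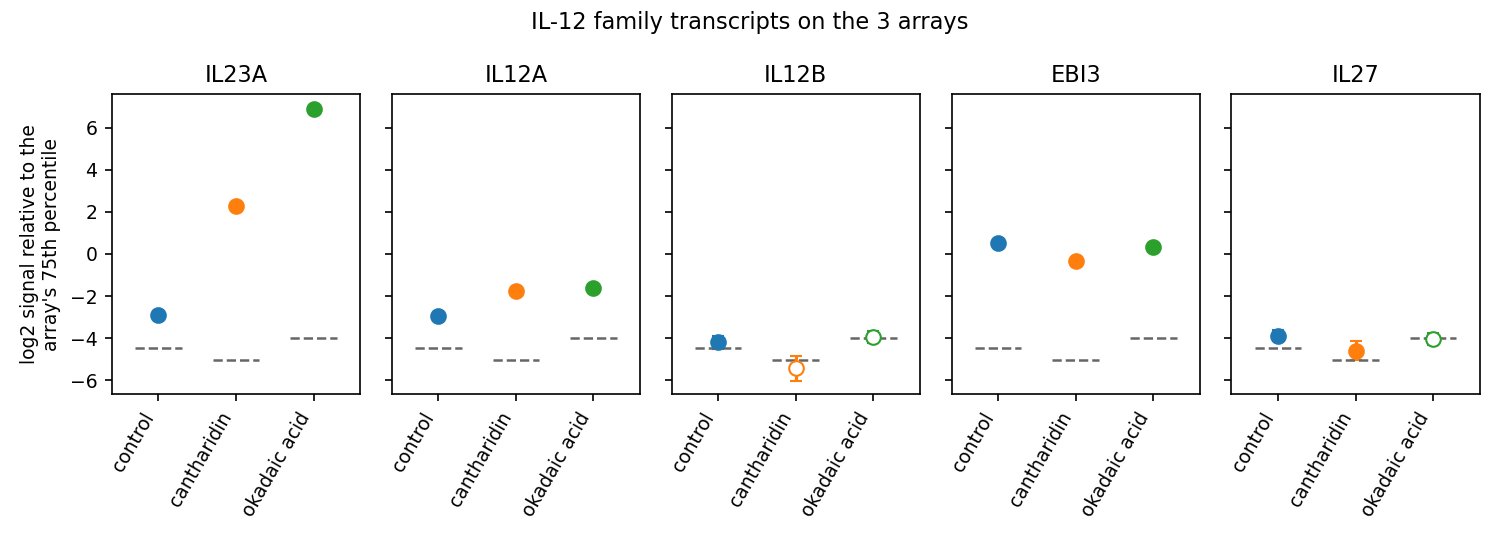
Signals of the 5 IL-12 family transcripts on the 3 arrays, ordered control, cantharidin, okadaic acid. The vertical axis is the log2 signal relative to the 75th percentile of the array, bars are the spot noise SD, open points were not well above background, and dashed lines give the lowest signal well above background on each array. IL23A climbs from -2.88 in control cells to 2.26 and 6.88, while IL12B and IL27 stay near the dashed lines.

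IL12B encodes the p40 chain that both IL-12 and IL-23 require. Its intensity was 43.2 in control cells, 16.7 under cantharidin and 60.5 under okadaic acid. Only the control value was well above background, at 1.23 times the lowest such signal on its array. IL12B was at least 1.79-fold lower under cantharidin than in control cells (log2 difference -1.23, spot noise SD 0.67), a bound that takes no account of spot noise. Under okadaic acid no fold can be given against control, because the treated signal was below the detection flag while its scaled value was not lower (log2 difference 0.23, spot noise SD 0.42). The okadaic acid array was the least sensitive, with 58.0 intensity units as its lowest signal well above background, against 35.0 on the control array and 21.9 on the cantharidin array. A p40 transcript was therefore not detectable above background on either treated array, on which its partner IL23A was 155.8 and 1904 times the respective lowest detected signal.

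IL12A, which encodes the p35 chain, had an intensity of 103.7 in control cells, 207.0 with cantharidin and 302.6 with okadaic acid. All 3 values were well above background, and both treated values lay above control. IL12A was 2.20-fold higher under cantharidin (log2 difference 1.14, spot noise SD 0.24), and with okadaic acid 2.45-fold (log2 difference 1.29, spot noise SD 0.21). The agents differed from each other by 0.15 on the log2 scale, which was less than the spot noise SD of 0.19. The study listed IL12A, from these same arrays, among many proangiogenic genes higher under both agents, so its values are not independent of that choice. The study also measured IL12A by real-time PCR, and reported that inhibitors of PKC and of NF-κB attenuated its rise under cantharidin.

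EBI3 had the firmest measurement of the family, since its probe was printed in 10 spots. The spots ranged from 1082 to 1172 intensity units in control cells, with a median of 1111. Under cantharidin the 9 spots without an outlier flag ranged from 527.3 to 615.8, with a median of 563.9. Under okadaic acid the 8 such spots ranged from 1127 to 1213, with a median of 1155. These ranges are intensities before scaling between arrays, and the SD over spots of 1 array was between 0.04 and 0.06 on the log2 scale. After scaling, EBI3 was 1.80-fold lower under cantharidin (log2 difference -0.85) and differed from control by -0.20 under okadaic acid. Spots of 1 array are technical repeats of the same RNA, so their spread says nothing about other cultures. The sign under okadaic acid depended on the scaling, and the log2 difference was 0.06 without any.

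IL27, the p28 chain, lay close to the detection limit on every array. Its intensity was 53.5 in control cells and 29.4 under cantharidin, at 1.53 and 1.34 times the lowest detected signal. The okadaic acid value of 57.3 was not well above background. IL27 was 1.65-fold lower under cantharidin (log2 difference -0.73, spot noise SD 0.52), and this difference fell inside 1.5-fold under quantile normalization and normexp background correction. Under okadaic acid the log2 difference of -0.16 was smaller than the spot noise SD of 0.39. Without scaling it was 0.10, so the direction of IL27 under okadaic acid was not settled.

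Over the family, 2 of 5 genes lay at least 1.5-fold above control under cantharidin, and the other 3 lay at least that far below it. Across the 16644 genes compared, 27.5% were higher by this measure and 34.1% lower, so crossing this threshold was common. Under okadaic acid, 2 of 5 members were higher and none lower, beside 28.1% higher and 28.8% lower among 16166 genes. In the direct comparison, 4 members could be compared, and IL23A and EBI3 were at least 1.5-fold higher under okadaic acid than under cantharidin, beside 29.5% higher and 22.3% lower among all genes. EBI3 was 1.57-fold higher there, and this fell inside 1.5-fold under median scaling and normexp correction. The median over the family was -0.73 under cantharidin and 0.23 under okadaic acid, beside -0.16 and 0.01 over all genes compared. With 5 members, these counts cannot be told from the shares over all genes.

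By size of rise, IL23A ranked 23rd of 14900 genes measured on both arrays under cantharidin and 1st of 14428 under okadaic acid. In the direct comparison it ranked 9th of 14604 genes. The 5 genes with the largest folds of okadaic acid over cantharidin were IFIT1 (94.1-fold), ADAMTS1 (68.95-fold), B3GALT4 (43.0-fold), CD69 (40.2-fold) and RAB3A (39.9-fold). IL12A ranked 2366th under cantharidin and 1963rd under okadaic acid, and EBI3 11207th and 8674th. The order was chosen by the same values that brought IL23A into this description, so it carries no test.

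The genes whose changes were most like those of IL23A were found by the distance between pairs of log2 differences, over genes that passed the detection flag on each of the 3 arrays. The nearest of 14221 genes was RASD1, a Ras-related GTPase, at a distance of 1.40, with log2 differences of 5.36 under cantharidin and 8.38 under okadaic acid. ARC, an immediate early gene of neurons, followed at 1.75 (6.86 and 9.45), then C11orf96 at 2.24 (5.94 and 7.68). CXCL8, the neutrophil chemokine IL-8, was at 3.14 (5.57 and 6.65) and the transcription factor CEBPA at 3.42 (3.19 and 6.95). All of these distances exceeded the spot noise of the IL23A differences. IL23A was included for an extreme value, so few genes can lie near it, and these distances are not read as a trait of IL23A. IL12A had differences of a more common size, and YAE1, ATF7IP, DUSP12, FOXJ3 and NCOA1 lay within 0.04 of it. The nearest to EBI3 were CENPE, SLC25A6, CHMP7, MRGPRG and ADIRF, within 0.02. Both comparisons used the same control array, so a control signal that is low by error raises both differences of a gene together.

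**Figure D3:**
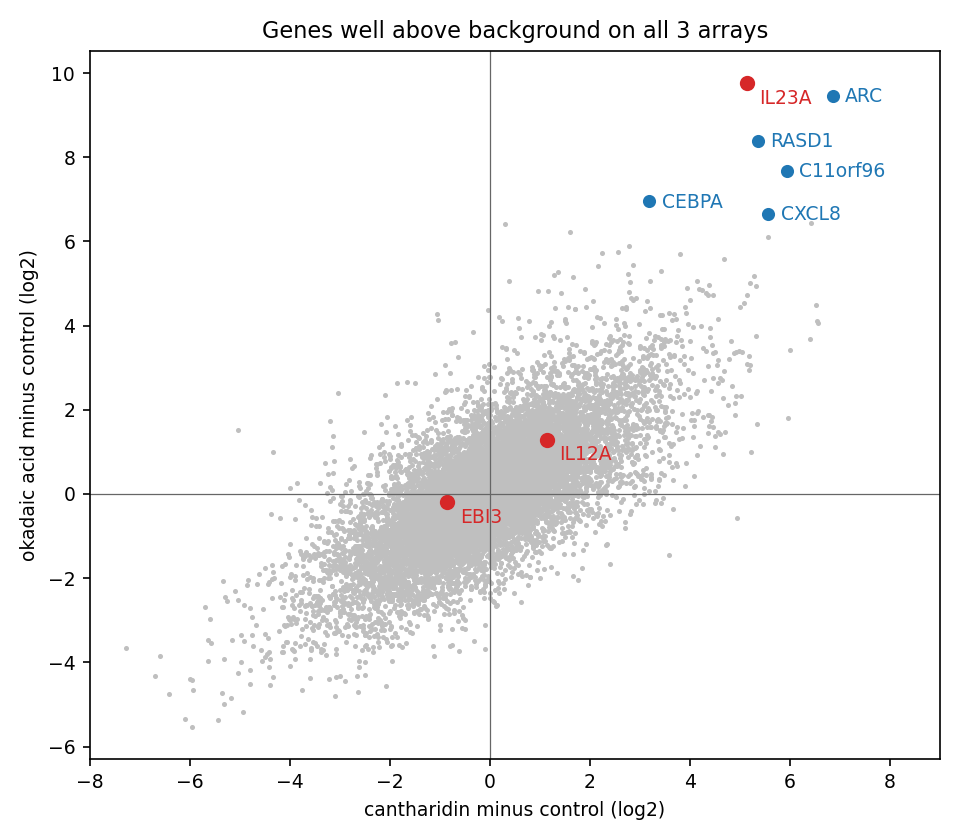
Log2 differences from control of genes that passed the detection flag on each of the 3 arrays, with cantharidin on the horizontal and okadaic acid on the vertical axis. Grey points are all such genes, red points the family members measured on all arrays, and blue points the 5 genes nearest to IL23A. IL23A sits at 5.14 and 9.76, at the top of the plot, while IL12A (1.14 and 1.29) and EBI3 (-0.85 and -0.20) lie within the main cloud. The axes share the control array, so the slope of the cloud is not read as a result.

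The receptors of the family changed less than IL23A. IL12RB1, the chain shared by the IL-12 and IL-23 receptors, had intensities of 234.4, 171.5 and 303.6 (control, cantharidin, okadaic acid), and neither treated value was 1.5-fold from control. IL23R, the chain particular to IL-23, was well above background in control cells only, at 37.5, or 1.07 times the lowest such signal. It was at least 1.56-fold lower under cantharidin (log2 difference -1.26, spot noise SD 0.72), a bound that takes no account of spot noise. IL12RB2, which completes the IL-12 receptor, was well above background under cantharidin only, at 30.5, with no bound on its change. IL27RA, the IL-27 receptor chain, had intensities of 370.3, 367.0 and 257.7 and was 1.71-fold lower under okadaic acid. On the brightest probes, 0 of 5 receptor genes compared were at least 1.5-fold higher under cantharidin and 0 of 4 under okadaic acid. Over all genes the shares higher were 27.5% and 28.1%, and with so few genes the counts cannot be told from these shares.

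IL6ST, the gp130 chain used by IL-27 and by IL-6, depended on the probe. Its brightest probe gave 901.4, 904.6 and 1045, a change below 1.5-fold under both agents. Of its other 6 probes, 1 gave 38.4 in control cells, 314.5 under cantharidin and 463.1 under okadaic acid, or 9.03-fold and 10.1-fold. Another, against a different transcript accession, did not pass the detection flag in control cells, and its signal was at least 20.4-fold higher with cantharidin and at least 5.14-fold with okadaic acid. One more, well above background on each array, was 1.96-fold and 2.38-fold higher. Another pair passed the detection flag with cantharidin alone, and both were higher there, by at least 1.31-fold and 1.60-fold. The remaining probe was 1.70-fold lower under cantharidin, a log2 difference of -0.76 at a dim intensity of 39.4, with a spot noise SD of 0.43. The probes thus differed in size, with 5 of the other 6 higher under cantharidin, and which transcripts they report was not tested.

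Among 7 signalling genes, 2 lay at least 1.5-fold above control under cantharidin and 4 under okadaic acid, with none at least that far below it. Over all genes the shares above control were 27.5% and 28.1%, so the cantharidin count was near the background. Neither count carries a test, because the list is short and was chosen with earlier results of these data known. SOCS1, a feedback inhibitor of JAK kinases, had intensities of 862.2, 2310 and 9628, or 2.95-fold and 9.36-fold higher. SOCS3, another feedback inhibitor, had 4090, 2494 and 19932, which was 4.08-fold higher with okadaic acid but 1.49-fold lower with cantharidin. STAT4, which carries the IL-12 signal in T cells, was 2.15-fold higher under okadaic acid (59.4 in control and 152.3 in treated cells). JAK2 was 1.61-fold and 1.66-fold higher, while JAK1 and TYK2 stayed within 1.5-fold of control. STAT3, which IL-23 activates, also stayed within 1.5-fold on its brighter probe, but a second probe was 3.44-fold lower under okadaic acid. Taking receptors and signalling genes as a list of 12, the median log2 difference came to 0.11 for cantharidin and 0.24 for okadaic acid, beside -0.16 and 0.01 over all genes.

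Of the transcription factors described at promoters of the family, 8 of 12 were at least 1.5-fold higher under cantharidin and 2 were lower. For okadaic acid, 6 of 11 were higher and 3 lower. The shares over all genes were 27.5% higher and 34.1% lower for cantharidin, and 28.1% and 28.8% for okadaic acid. This short list was chosen with earlier results of these data known, so its counts and its median carry no test. REL, the NF-κB subunit c-Rel, was 4.43-fold and 4.33-fold higher, with intensities of 72.3, 290.5 and 373.2. RELB was 8.50-fold and 3.21-fold higher, RELA 4.83-fold and 1.85-fold, and NFKB1 2.20-fold and 3.49-fold. Of these subunits NFKB1 was the one with the larger value under okadaic acid. IRF5 was 12.6-fold higher under cantharidin and differed by 1.26-fold under okadaic acid. CEBPB was 2.87-fold and 2.07-fold higher and ATF2 3.54-fold and 1.95-fold higher. DDIT3, which encodes the stress factor CHOP, was 3.44-fold higher with cantharidin but 1.52-fold lower with okadaic acid. SMAD3, a mediator of TGF-β, was 10.4-fold and 2.71-fold lower, and SPI1, the myeloid factor PU.1, was 1.70-fold and 2.23-fold lower. IRF1 stayed within 1.5-fold of control, and IRF8 was well above background under cantharidin only, at least 1.03-fold higher. The median log2 difference of the list was 1.65 for cantharidin and 0.89 for okadaic acid, beside -0.16 and 0.01 over all genes. Between the agents, REL differed by 1.02-fold, RELA and RELB were 2.61-fold and 2.64-fold lower under okadaic acid, and NFKB1 was 1.59-fold higher.

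**Figure D4:**
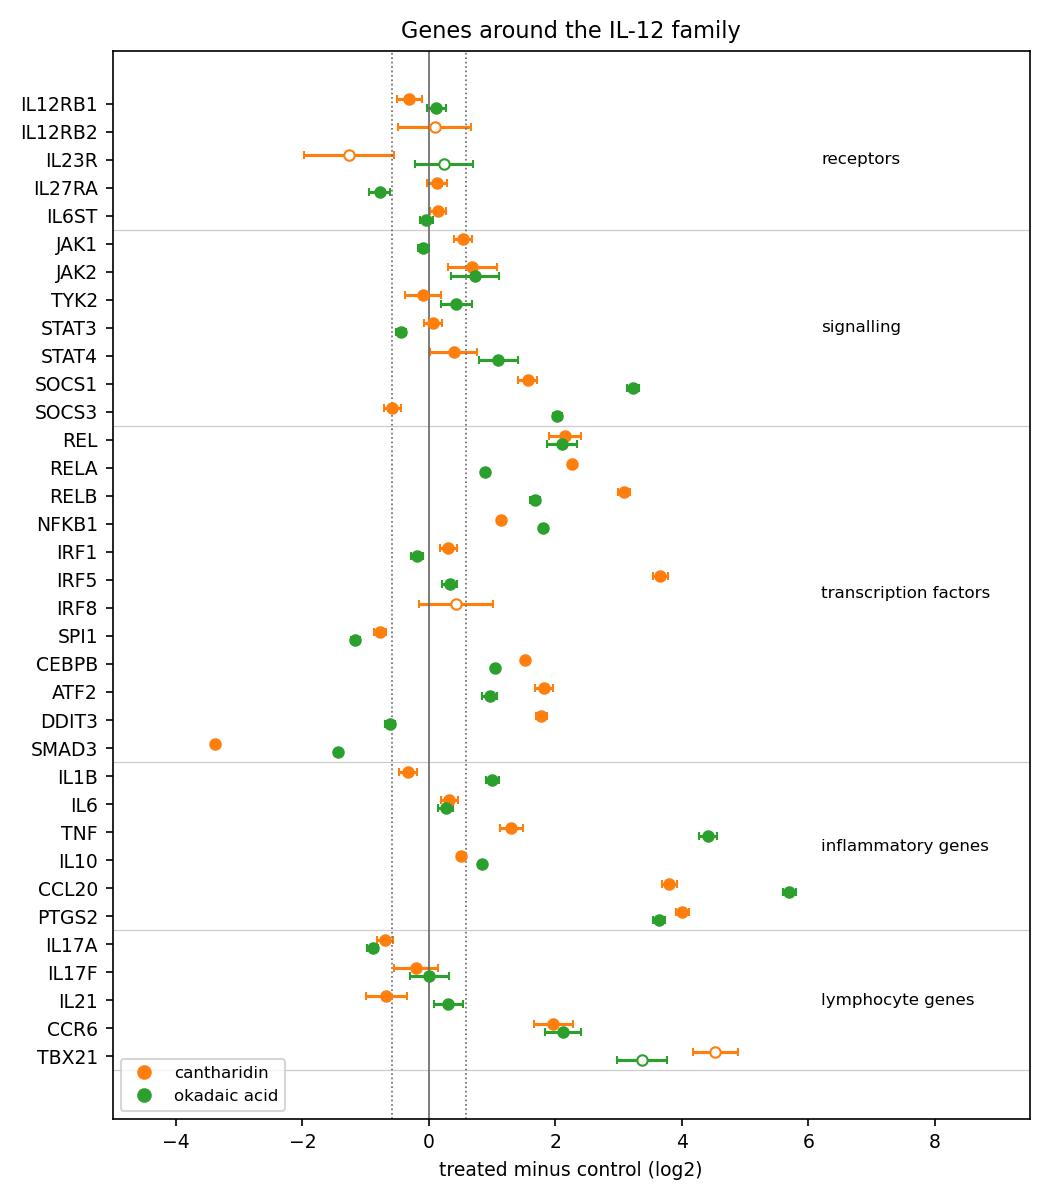
Log2 differences from control under cantharidin (orange) and okadaic acid (green) for the receptor, signalling, transcription factor, inflammatory and lymphocyte genes around the family, on the brightest probe of each gene. Bars are the spot noise SD, open points mark genes that missed the detection flag on an array compared, and dotted lines mark 1.5-fold. IL23R under cantharidin and IL27RA under okadaic acid lie outside the dotted lines, and the other plotted receptor values lie within them. IL12RB2 has no okadaic acid point. CCL20, PTGS2 and TNF lie furthest to the right among genes measured on both arrays under okadaic acid.

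Inflammatory genes often measured together with IL-23 were higher for 3 of 6 genes under cantharidin and 5 of 6 under okadaic acid, with none lower. Among all genes, 27.5% were higher and 34.1% lower for cantharidin, and 28.1% and 28.8% for okadaic acid. Earlier results of these data were known when these few genes were chosen, so the counts carry no test. CCL20, a chemokine for CCR6-bearing cells, had intensities of 369.3, 4682 and 22880, or 14.0-fold and 51.9-fold higher. PTGS2, the cyclooxygenase COX-2, was 16.1-fold and 12.5-fold higher, and TNF 2.46-fold and 21.3-fold higher. IL1B was 2.00-fold higher under okadaic acid (53.6 in control and 128.3 in treated cells) and IL10 1.79-fold higher, while both differed by less than 1.5-fold under cantharidin. The study listed IL10, from these same arrays, among genes higher under both agents by 1.5-fold. Here it was 1.43-fold higher under cantharidin, short of that threshold. IL6 stayed within 1.5-fold of control. The study reported that both agents raised secretion of IL-6 and TNF-α into the medium over time, which measures protein and not RNA. Between the agents, TNF, CCL20 and IL1B were 8.68-fold, 3.72-fold and 2.53-fold higher with okadaic acid, and IL6, IL10 and PTGS2 differed by less than 1.5-fold.

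Genes that IL-12 and IL-23 act on in lymphocytes were read as well, although the cultures are of a tumour line alone. Of 7 genes, IL22 and IFNG were not well above background on any array. CCR6 was 3.91-fold and 4.33-fold higher with cantharidin and okadaic acid (61.5, 218.9 and 318.2). TBX21, the factor T-bet, did not pass the detection flag in the control culture. Its signal was at least 4.58-fold higher with cantharidin and at least 2.06-fold with okadaic acid. IL17A was 1.62-fold and 1.85-fold lower, with 2232 intensity units in control cells. IL21 was 1.59-fold lower under cantharidin, and IL17F differed by less than 1.5-fold under both.

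Because the family is best known from antigen-presenting cells, markers of those cells were read beside IL23A. Of 9 markers with a probe, 6 were well above background on each array, and CD86, HLA-DRA and CD1C were above it on none. Over all 19699 named genes, 15667, 15877 and 14927 were well above background (control, cantharidin, okadaic acid). Passing this flag was therefore common, and it is not read as a sign of a cell type. The summed intensity of the 9, before scaling between arrays, was 7025 in control cells, 7213 under cantharidin and 25617 under okadaic acid. CD68 (12731) and CD14 (11044) were its largest parts under okadaic acid. The same sum over the epithelial markers named below was 146317, 164573 and 269030, and over the T cell markers 20707, 13400 and 17075. CD14 and CD68 were 3.65-fold and 3.62-fold higher under okadaic acid, with both differing by less than 1.5-fold under cantharidin. ITGAX was 6.89-fold and 4.99-fold higher and CSF1R 2.76-fold and 2.40-fold higher, while ITGAM was lower, with intensities of 999.2, 599.3 and 786.0 and folds of 1.51 and 1.52. Of the 6 detected markers, 2 were thus at least 1.5-fold higher and 1 lower for cantharidin, and 4 higher and 1 lower for okadaic acid, beside 27.5% and 34.1%, and 28.1% and 28.8%, of all genes compared. The brightest probe of PTPRC, which encodes the leukocyte antigen CD45, stayed within 1.5-fold of control with either agent, but another PTPRC probe was at least 5.63-fold higher with cantharidin and at least 3.15-fold with okadaic acid. Among 5 T cell markers, all were well above background on all arrays and none was at least 1.5-fold higher under either agent, a change that 27.5% and 28.1% of all genes showed. CD3D was 2.06-fold lower and CD2 1.86-fold lower under cantharidin, and CD4 was 1.51-fold lower under okadaic acid. The brighter CD8A probe stayed within 1.5-fold, but a dimmer one was 1.69-fold lower under okadaic acid. The epithelial markers KRT7, KRT8, KRT18, KRT19 and EPCAM were well above background on each array and moved in both directions. EPCAM was 3.42-fold and 2.20-fold lower, KRT8 2.25-fold lower for cantharidin and KRT7 1.67-fold lower for okadaic acid. A dimmer KRT8 probe was lower for both agents, by 2.76-fold and 2.12-fold. KRT18 was 1.99-fold and 2.29-fold higher, and KRT19 was 2.59-fold higher for okadaic acid. The marker lists were short and chosen with earlier results of these data known, so their counts carry no test. The part of these marker changes in the IL23A result was not tested.

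The arrays came from the same slide and scan, with 1 slide position per group, so position and treatment cannot be told apart. The median difference over all genes lay between -0.30 and -0.09 for cantharidin and between -0.11 and 0.26 for okadaic acid over the scalings and corrections tried. The IL23A difference was never below 4.17 for cantharidin and 8.83 for okadaic acid, both under normexp background correction, which adds an offset of 50 to every signal.

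**Figure D5:**
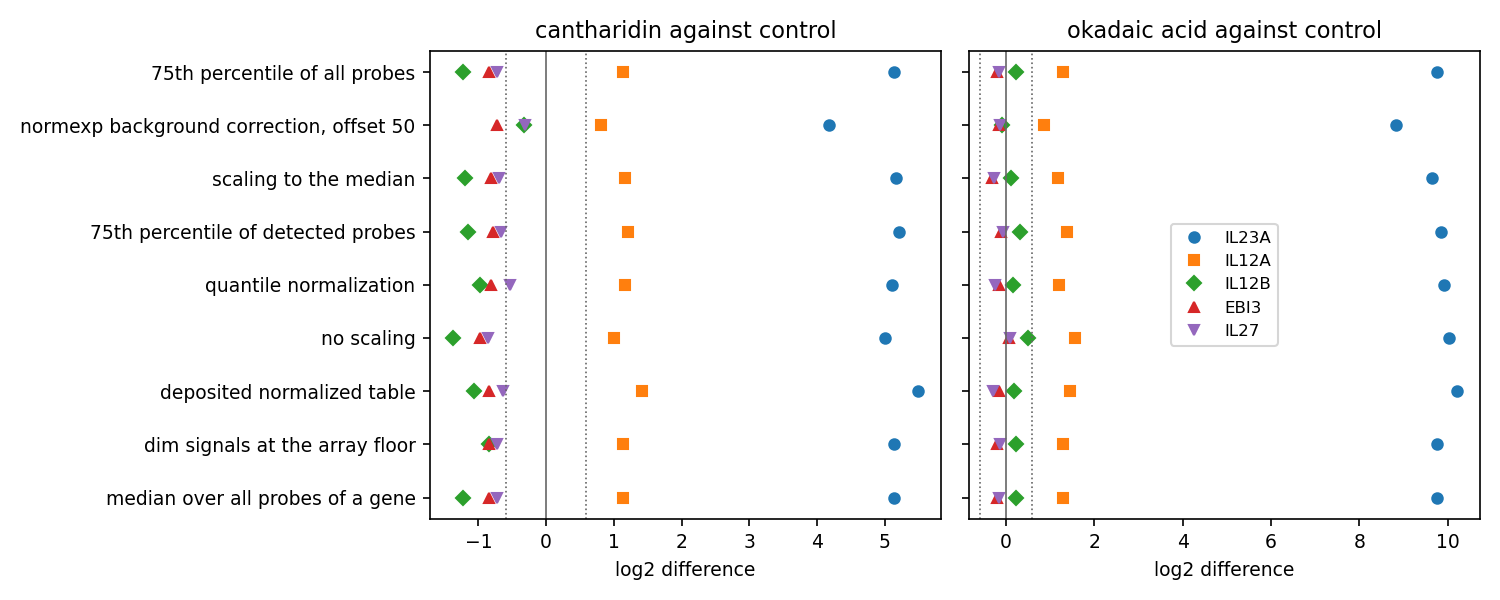
Log2 differences from control of the 5 family members under each processing setting, for cantharidin (left) and okadaic acid (right), with dotted lines at 1.5-fold. IL23A stays between 4.17 and 5.49 under cantharidin and between 8.83 and 10.2 under okadaic acid, and IL12A stays above 1.5-fold in all settings, while IL12B and IL27 cross the lower line under cantharidin in some.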

How the data were processed

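Total RNA of PANC-1 cells was labelled with Cy3 and hybridised to 3 Agilent 1-colour arrays. The authors deposited each array's spot intensity, as written by Feature Extraction 11.0.1.1 and background-subtracted and detrended within each array per the file headers, whose annotation build was hg19, together with detection, saturation and outlier flags. They also deposited normalized log2 values by a method not given in the sources used here, which served as an alternative. Groups came from the sample titles.

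Spots with outlier flags were dropped, log2 intensity was averaged per probe, and the array's 75th percentile was subtracted. No pseudocount was used. Accessions were matched without version to RefSeq symbols of GRCh38.p14, which named 25705 probes. The brightest probe on average over the 3 arrays represented a gene. A gene entered a comparison if either array had it well above background, and was counted at 1.5-fold, the threshold of the study. "At least" folds set the dim signal to the higher of its own value and the lowest signal well above background on that array. Spot noise was the pooled SD of log2 signals over 999 probes with 10 spots, within 0.5 of the probe's log2 brightness. The number of arrays limits the precision.

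Members and lists were chosen with earlier results of these data known. Named genes were all members, all list genes except a few that are not reported here, the 5 genes nearest to IL23A, IL12A and EBI3 in both differences and the 5 largest rises from cantharidin to okadaic acid. LYZ had no matched probe and the IL27 upstream sequence was not used here. The normexp step used median spot intensity in place of the mean. Counting was tested on simulated data. Software was Python 3.11.15 (pandas 2.3.3, numpy 2.4.6, matplotlib 3.10.9) and limma 3.58.1 in R 4.3.3.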

Additional observations from a re-analysis of the deposited data

How the results depend on the processing

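IL23A kept its direction and stayed past 1.5-fold under all 8 alternatives in each comparison. Setting dim signals to the array floor and taking the median over probes could not change IL23A, IL12A or EBI3. Each of these had 1 probe and was well above background on all arrays. Its log2 difference moved beyond spot noise to 4.17 for cantharidin and 8.83 for okadaic acid under normexp correction, and to 5.49 and 10.2 in the deposited normalized table. Without scaling it was 10.02 for okadaic acid against control and 5.02 for okadaic acid against cantharidin, where median scaling gave 4.47 and quantile normalization 4.80. Family genes past 1.5-fold under cantharidin numbered 3 in place of 5 under normexp correction, under a 2-fold threshold and among genes well above background on all arrays. Between the agents the count was 1 in place of 2 under normexp correction, median scaling and a 2-fold threshold. Of receptor and signalling genes, 2 in place of 5 were past the threshold for okadaic acid against control under normexp correction and 3 at 2-fold, 3 in place of 6 were past it between the agents at 2-fold, and 5 in place of 3 for cantharidin against control when each gene was read as the median of its probes. The shares of all genes past the threshold were not computed under these settings, so these counts cannot be set against a background. IL12A stayed at least 1.5-fold higher under both agents in all 8 alternatives, with log2 differences from 0.81 to 1.41 and from 0.87 to 1.55. EBI3 stayed at least 1.5-fold lower under cantharidin in all 8, from -0.98 to -0.72. IL12B was at -0.32 under normexp correction, inside 1.5-fold. No value past 1.5-fold changed sign. The cause of these shifts was not tested. Signals near background limit IL12B and IL27 on the okadaic acid array, where neither was detected.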
